A study of Mus musculus with 63 samples.

Results

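The libraries described here are a pull-down without its target: synaptopodin co-immunoprecipitation (Synpo-coIP) and input of entorhino-hippocampal tissue cultures from synaptopodin-deficient mice. The members were chosen by their titles, as the count files of the preparations SPko-1 and SPko-2, which gave 4 of the 63 libraries of the series, 2 coIP and 2 input. The mice are labelled B6.129-Synpotm1Mndl/Dllr (Synpo-/-), a line back-crossed to C57BL/6J. Cultures of either sex were prepared at postnatal days 3 to 5, kept for at least 18 days in vitro and not lesioned, and 6 of them were pooled per sample. Lysates were cleared with beads before the precipitation, an aliquot of the cleared lysate was kept as input, and a rabbit antibody against synaptopodin on protein A beads gave the coIP. The labels of the SPko samples name NP-40 or IGEPAL CA-630 as the detergent, and those of the wildtype samples NP-40. For comparison the series has Synpo-coIP and input of wildtype C57BL/6J cultures, 5 non-lesioned and 5 after entorhinal cortex lesion (ECL) per fraction, which share no library with the SPko comparison. The study used the SPko pull-down to correct the wildtype one for RNA that binds without synaptopodin, so the question of the comparison is which transcripts are higher or lower in the precipitate when the target protein is missing.

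Synaptopodin is an actin- and alpha-actinin-binding protein of dendritic spines. In spines it is needed for the spine apparatus, a stack of smooth endoplasmic reticulum that holds and releases calcium through ryanodine and IP3 receptors. A co-immunoprecipitation of RNA recovers, beside what the antibody holds, whatever sticks to the beads, the antibody or the tube, and whatever sediments with them. Cycloheximide in the solution stops translating ribosomes where they are, so that an mRNA stays loaded with as many ribosomes as its open reading frame carried at lysis. Long open reading frames can carry more ribosomes than short ones.

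Synpo, the gene of the target (ENSMUSG00000043079.17, chromosome 18, 60593973 to 60660142, minus strand, GRCm38), was as abundant in the SPko inputs as in those of the wildtype. It had 28.5 and 24.9 CPM, counts scaled to the library's total, in the inputs of preparations 1 and 2, against 17.9 to 30.9 (median 24.3) in the 5 non-lesioned wildtype inputs. The coIP libraries of preparations 1 and 2 had 31.3 and 27.2 CPM. Those of the wildtype had 28.1 to 43.4 (median 39.5) without lesion and 35.5 to 48.7 after it, so preparation 2 lay below both ranges. The counts per gene therefore do not check the knockout label. Which part of the gene the allele removes is not given in the sources used here, and the libraries are called by their label, SPko. The SPko libraries held 42886994 to 53682143 counts and the non-lesioned wildtype libraries 12888443 to 26730691, so genotype, depth and the set in which libraries were made cannot be told apart. Transcripts of the Y chromosome were near 0 in the SPko pools, with Ddx3y at 0.0233 to 0.224 CPM, while the non-lesioned wildtype inputs ran from 0.171 to 135 CPM (median 124). Xist, expressed from the inactive X chromosome of females, stood at 159 and 143 CPM in the SPko inputs and at 0.0852 to 128 CPM (median 1.07) in those of the wildtype. In this both SPko pools were like 1 of the 5 non-lesioned wildtype pools and unlike the others, and the part of the sex of the pools in any genotype difference was not tested. Where nothing else is said, values below are normalized counts, which are counts scaled to a common effective library size, and levels are compared between libraries and not between genes.

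Nearly 1 in 3 of the genes tested differed between precipitate and input without the target protein. Of 20892 genes tested, 3138 (15.0%) were higher in the coIP and 3429 (16.4%) were lower (edgeR's quasi-likelihood test, Benjamini-Hochberg adjusted p under 0.05), and 8897 (42.6%) had an unadjusted p under 0.05. Each called gene moved in the same direction in both preparations. A call from these same libraries makes that likely, so it is not a replication. The coIP of both preparations lay above both inputs for 7253 genes (34.7%) and below both for 6979 (33.4%). Many of the differences were large, since 1334 genes were more than 2-fold higher (6.39%) and 1061 more than 2-fold lower (5.08%), and 260 and 117 passed 4-fold. With 2 libraries per fraction the spread was estimated across all genes, and each library was made from a pool of cultures, so the p-values measure the spread between pools. With the preparation as a block 3660 genes were higher and 3816 lower. Without the input library of preparation 2, 1499 were higher and 1984 lower.

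Short-coding mRNAs were among the transcripts with large losses in the precipitate. Of those given next, Hmga1 and Gng2 were among the 12 largest losses of genes with a mean normalized count over 300. Tmsb4x and Dynll1 were not, and the 12 also held genes not given here, some with Gm names. Tmsb4x (ENSMUSG00000049775.16, minus strand of chromosome X, 167207093 to 167209315), which encodes the actin-monomer-sequestering peptide thymosin beta-4, had 168970 and 210010 normalized counts in the inputs and 72663 and 47803 in the coIP libraries. Both coIP values lay below both inputs, a 3.15-fold loss (log2 fold change -1.65, SE 0.193, adjusted p 2.33e-04). Gng2 (ENSMUSG00000043004.13, minus strand of chromosome 14, 19872559 to 19977627), a G protein gamma subunit, fell from 7387 and 8678 to 2632 and 1823 (log2 fold change -1.85, SE 0.177, adjusted p 1.83e-04). Hmga1 (ENSMUSG00000046711.16, plus strand of chromosome 17, 27556497 to 27563674), a chromatin protein that binds AT-rich DNA, had the largest loss among genes with a mean normalized count over 300, from 752 and 584 to 168 and 143, 4.30-fold (log2 fold change -2.10, SE 0.224, adjusted p 1.95e-04). Dynll1 (ENSMUSG00000009013.5, minus strand of chromosome 5, 115297110 to 115300999), the dynein light chain LC8, fell from 19829 and 22800 to 8445 and 6155 (log2 fold change -1.55, SE 0.165, adjusted p 1.95e-04). The whole coding sequences of Tmsb4x, Gng2 and Dynll1 are printed here because their length is what they share: each fits on a few lines, with introns removed and the start and stop codons in capitals (GRCm38 reference, read with the annotation deposited with the counts).
Tmsb4x, 135 bases: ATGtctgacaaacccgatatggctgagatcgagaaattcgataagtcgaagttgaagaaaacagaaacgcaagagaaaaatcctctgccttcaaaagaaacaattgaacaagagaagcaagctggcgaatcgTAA
Gng2, 216 bases: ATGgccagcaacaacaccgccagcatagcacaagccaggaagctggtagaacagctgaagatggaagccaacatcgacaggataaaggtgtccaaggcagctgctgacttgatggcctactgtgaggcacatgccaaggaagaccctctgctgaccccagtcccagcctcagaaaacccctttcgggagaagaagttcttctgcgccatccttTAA
Dynll1, 270 bases: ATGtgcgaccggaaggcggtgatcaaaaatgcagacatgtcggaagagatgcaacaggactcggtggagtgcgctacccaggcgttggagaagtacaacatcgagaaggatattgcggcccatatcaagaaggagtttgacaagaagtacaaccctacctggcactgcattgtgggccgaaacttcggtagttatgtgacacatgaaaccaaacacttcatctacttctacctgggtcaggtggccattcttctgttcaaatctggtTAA

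Atp6v1g2, Ftl1 and Ucp2 were also among the 12 largest losses. Atp6v1g2, the neuronal G subunit of the vacuolar proton pump, fell from 57403 and 55742 to 19566 and 15295 normalized counts. Ftl1, the ferritin light chain that stores iron, fell from 46541 and 49287 to 16216 and 13547, and Ucp2, a mitochondrial carrier, from 2097 and 2071 to 665 and 579. In each of them both coIP libraries lay below both inputs, and the log2 fold changes were -1.70, -1.69 and -1.75 (adjusted p 1.83e-04 for all 3). Among genes with a mean normalized count over 300, most of the 12 largest gains belonged to genes with Gm names. Long and nuclear RNAs also rose. Of those given next, Neat1, Col16a1 and Crocc were among these 12, and Xist and Sptbn1 were not. Neat1 (ENSMUSG00000092274.3, minus strand of chromosome 19, 5824708 to 5845478), the long noncoding RNA that builds nuclear paraspeckles, rose from 4123 and 2555 to 12115 and 11871, 3.59-fold (log2 fold change 1.84, SE 0.192, adjusted p 1.83e-04). Xist (ENSMUSG00000086503.4, minus strand of chromosome X, 103460366 to 103483254), which coats the inactive X chromosome, rose from 7866 and 7178 to 25007 and 24437 (log2 fold change 1.72, SE 0.134, adjusted p 1.83e-04). Sptbn1 (ENSMUSG00000020315.18, minus strand of chromosome 11, 30099395 to 30268175), the beta-II spectrin of the membrane skeleton, rose from 20451 and 20432 to 44470 and 39925 (log2 fold change 1.05, SE 0.133, adjusted p 3.14e-04). Col16a1, a collagen that bears interrupted helices, rose from 194 and 126 to 598 and 584 and Crocc, the ciliary rootlet protein rootletin, from 200 and 216 to 672 and 752 (log2 fold changes 1.88 and 1.78, adjusted p 3.21e-04 and 2.10e-04). In none of these genes did the fractions overlap, and the preparations differed by less than the fractions did.

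**Figure D1:**
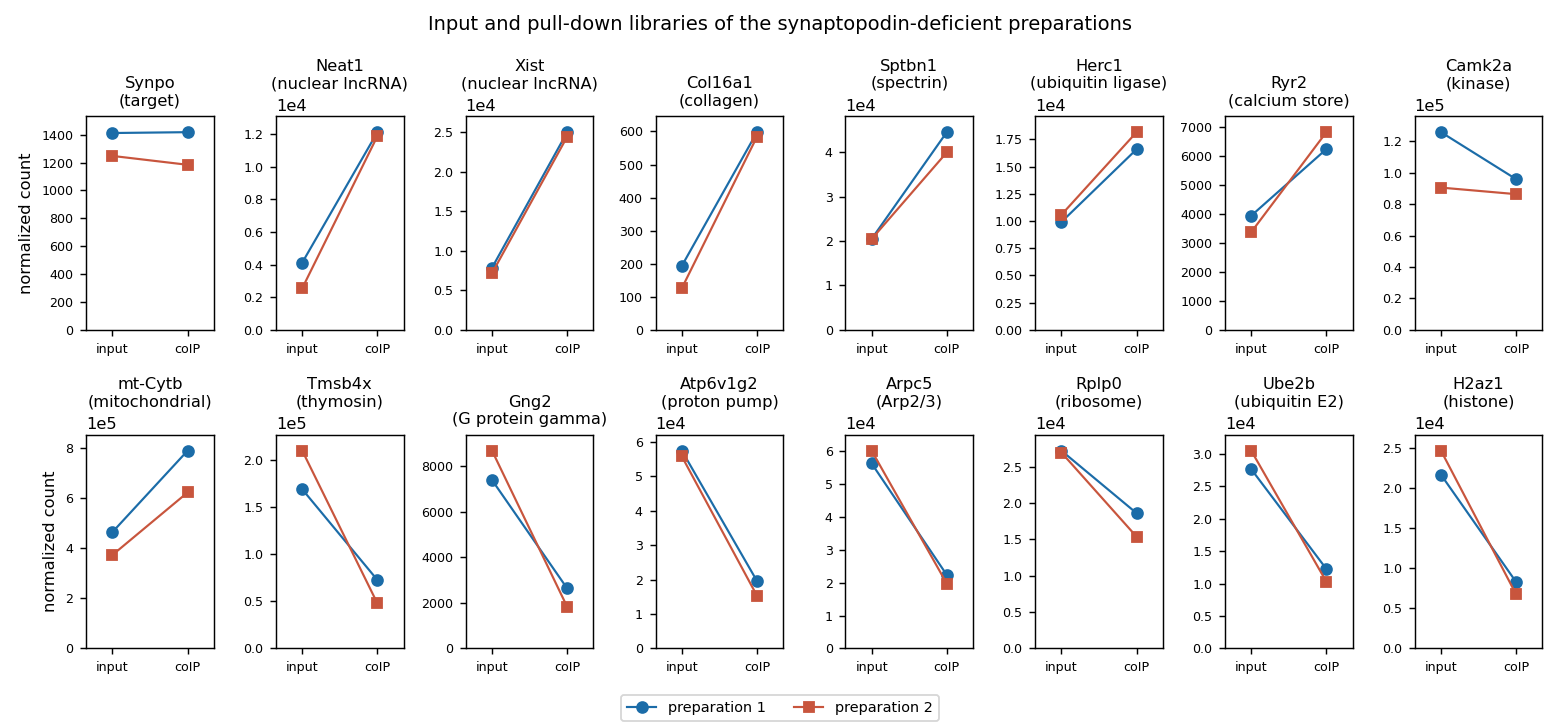
Normalized counts of 16 genes (vertical axes from 0, each panel with its own scale) in the input and coIP libraries of preparations 1 and 2, each preparation joined by a line. Neat1 and Xist lie above their inputs and Tmsb4x, Gng2 and Atp6v1g2 below them in both preparations, while the fractions overlap for Synpo and Camk2a.

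Across the protein-coding genes the sign and size of the change followed the length of the open reading frame. Among 1302 genes whose longest annotated coding sequence has up to 500 bases, the median log2 fold change was -0.78, and 57.1% were lower in the coIP and 1.15% higher. The medians of the longer classes were -0.40 (over 500 up to 1000 bases, 3446 genes), -0.05 (up to 2000, 5780 genes), 0.28 (up to 4000, 3523 genes) and 0.56 (over 4000, 1148 genes). In the longest class 53.2% of the genes were higher and 1.05% lower. Both preparations showed the gradient, with medians of -0.60 and -0.96 in the shortest class and 0.49 and 0.62 in the longest. The gradient was present among transcripts of like total length: of genes with over 4000 up to 6000 exonic bases, the medians of the same classes were -0.65, -0.40, -0.03, 0.29 and 0.49. Across 10399 genes with a mean normalized count over 300, Pearson's r of the log2 fold change was 0.681 with the logarithm of coding length, 0.479 with that of exon length and 0.251 with that of the exonic length outside the coding sequence. Genes share libraries and are not independent replicates, so these are descriptions. The non-lesioned wildtype pull-down had medians of -0.86, -0.48, -0.03, 0.43 and 0.79 in the same classes and r of 0.761. The longest annotated isoform need not be the one these cultures express.

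**Figure D2:**
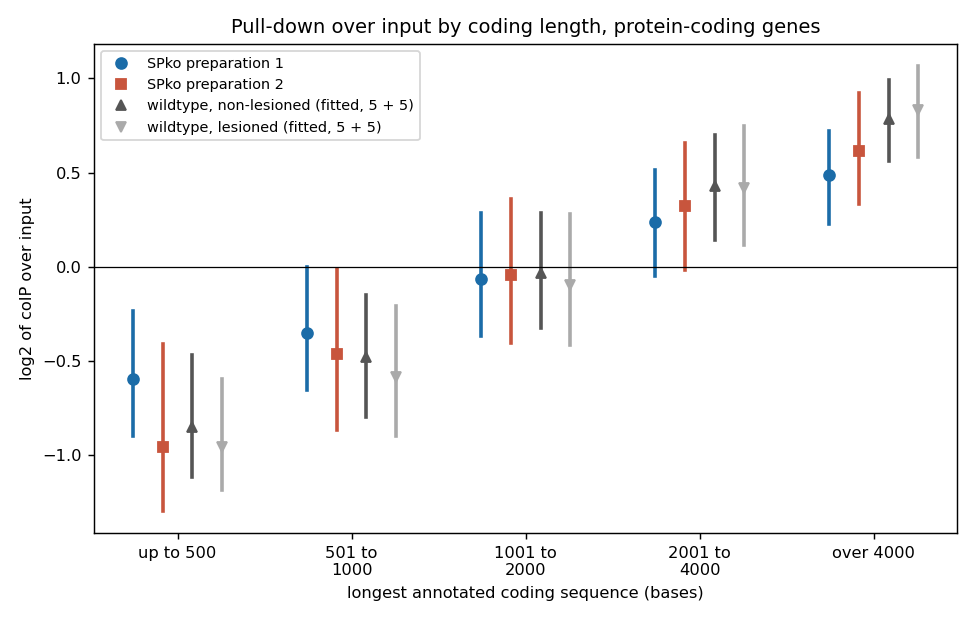
Log2 of coIP over input (vertical axis) of protein-coding genes in 5 classes of longest annotated coding sequence in bases (horizontal axis), with the median as a symbol and the quartiles as a line, for both SPko preparations and the fitted values of the wildtype groups. The medians climb from -0.60 and -0.96 in the shortest class of preparations 1 and 2 to 0.49 and 0.62 in the longest, and from -0.86 to 0.79 in non-lesioned wildtype.

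Gene groups lay along this gradient, and they are given here by role with their counts and medians, to be read beside 15.0% higher, 16.4% lower and a median of 0.02 over all genes tested. The lists were chosen with earlier results of these data known. Genes of the translation apparatus were mostly lower. Of 85 cytosolic ribosomal protein genes tested, 63 fell and none rose (median -0.74). Rplp0, the stalk protein, fell from 27227 and 26972 to 18620 and 15383 (log2 fold change -0.67, SE 0.139, adjusted p 0.00368), and Rpl4 of the large subunit from 47827 and 44234 to 33199 and 26155 (log2 fold change -0.63, SE 0.148, adjusted p 0.00700). Rps29 had the highest value of the list, 0.34 (adjusted p 0.166), with 2160 and 1723 in the inputs and 2874 and 2048 in the coIP, which overlap. Of 77 mitochondrial ribosomal protein genes, 60 fell and 1 rose (median -0.74), Mrpl42 from 14755 and 17307 to 8096 and 6074 (log2 fold change -1.18, adjusted p 3.91e-04). The 67 translation factors split, with 28 lower and 12 higher (median -0.32). Eif4e, the small cap-binding protein, fell from 19805 and 20836 to 9317 and 7528 (log2 fold change -1.27, adjusted p 2.17e-04), whereas Eef2, which moves the ribosome along its mRNA, rose from 21201 and 16538 to 26417 and 24047 (0.42, adjusted p 0.0484). Eif4g2, a translation initiation factor with a coding sequence of 2718 bases, ran against the gradient and fell from 30989 and 31356 to 19227 and 17159 (-0.78, adjusted p 0.00124). The adjusted p of Eef2 was 0.397 without the input of preparation 2 and 0.0888 without the coIP of preparation 1.

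Nuclear-encoded subunits of the respiratory chain fell in the same manner. In complex I, which oxidises NADH, 27 of 38 subunit genes were lower and none higher (median -0.61), and Ndufv2 fell from 27390 and 30139 to 19285 and 16116 (log2 fold change -0.70, adjusted p 0.00313). In complexes II to V, 25 of 47 were lower and 1 higher (median -0.52). Atp5a1, the alpha subunit of ATP synthase with a coding sequence of 1659 bases, did not pass the test, with 45210 and 45039 in the inputs and 46552 and 43964 in the coIP (0.00, adjusted p 0.984). In the vacuolar proton pump 9 of 19 subunit genes were lower (median -0.44). Of 56 Rab GTPase genes, the switches of membrane traffic, 32 fell and 2 rose (median -0.62), and Rab7 of late endosomes fell from 51432 and 52245 to 27534 and 23848 (log2 fold change -1.01, SE 0.136, adjusted p 3.66e-04).

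The lists of the ubiquitin system differed in direction. Ubiquitin-conjugating enzymes are small, and 21 of their 35 genes fell while 1 rose (median -0.72). Ube2b fell from 27638 and 30486 to 12251 and 10294 (log2 fold change -1.37, SE 0.142, adjusted p 1.83e-04). The one that rose was Ube2o, an enzyme with an unusually long coding sequence of 3864 bases, from 1673 and 1356 to 2459 and 2413 (log2 fold change 0.68, SE 0.151, adjusted p 0.00513). Of 21 genes of HECT-type and giant ubiquitin ligases, 12 rose and none fell (median 0.54), with Herc1 rising from 9917 and 10578 to 16597 and 18169 (log2 fold change 0.76, SE 0.132, adjusted p 0.00131). Proteasome subunits lay between, with 17 of 40 lower, 1 higher and a median of -0.36, and Psmb6 fell from 29044 and 31865 to 22426 and 19300 (-0.55, adjusted p 0.0105). Without the input of preparation 2 the adjusted p was 0.0698 for Ube2o and 0.0849 for Psmb6. Histone genes were lower in 10 of 34 cases and higher in none (median -0.66), among them H2az1, a histone variant, which fell from 21614 and 24611 to 8261 and 6723 (-1.63, adjusted p 1.83e-04).

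The actin and membrane skeleton, the setting of synaptopodin, was split in the same way. Of the 10 Arp2/3 subunit genes, which nucleate branched actin, 7 fell and none rose (median -0.68). Arpc5 fell from 56255 and 60142 to 22349 and 19720 (log2 fold change -1.47, SE 0.137, adjusted p 1.83e-04). Of 12 regulators of monomeric actin 9 fell (median -0.81), and Cfl1, the filament-severing cofilin, fell from 94461 and 101130 to 52758 and 44973 (log2 fold change -1.001, SE 0.140, adjusted p 4.50e-04). The spectrins, ankyrins and large linker proteins went the other way in 17 of 20 genes, with none lower (median 0.76). Ank2, which links spectrin to membrane proteins, rose from 18101 and 18141 to 34044 and 31702 (log2 fold change 0.86, SE 0.130, adjusted p 6.56e-04). Syne1, with the longest coding sequence of the list, did not pass the test, with 12919 and 15760 in the inputs and 13712 and 14774 in the coIP (-0.01, adjusted p 0.967).

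Several genes of the proteins and organelle that synaptopodin works with were higher in the precipitate without it, while Synpo itself did not pass the test. Synpo had 1412 and 1248 normalized counts in the inputs and 1418 and 1184 in the coIP libraries, which overlap (log2 fold change -0.03, SE 0.159, adjusted p 0.896). Of the 6 genes tested of its family and of the alpha-actinins, 3 rose and none fell (median 0.49). Actn1 rose from 1194 and 1144 to 1982 and 2176 (log2 fold change 0.83, SE 0.146, adjusted p 0.00145), Actn4 from 1990 and 1693 to 2463 and 3225 (0.63, adjusted p 0.0119) and Actn2, the alpha-actinin of spines, from 346 and 315 to 539 and 493 (0.64, adjusted p 0.0269). Calcium channels and pumps of the endoplasmic reticulum were higher in 6 of 8 genes and lower in none (median 0.69). Ryr2, the ryanodine receptor, rose from 3949 and 3380 to 6252 and 6838 (log2 fold change 0.84, SE 0.139, adjusted p 0.00106), and Itpr1, the main neuronal IP3 receptor, from 5950 and 5295 to 7568 and 7858 (log2 fold change 0.46, SE 0.132, adjusted p 0.0205). Actn1, Actn4, Actn2, Ryr2 and Itpr1 had both coIP libraries above both inputs. Without the input of preparation 2 the adjusted p rose to 0.101 for Actn4, 0.142 for Actn2 and 0.195 for Itpr1. Actn2 also lost its call without the input of preparation 1 (0.0579) or the coIP of preparation 1 (0.0806), and Actn4 without the coIP of preparation 2 (0.0708). The wildtype log2 fold changes were 0.84 for Actn1, 1.10 for Ryr2 and 0.84 for Itpr1, and the test of the difference between genotypes called none of them.

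Synaptic mRNAs were enriched in part. Of 24 glutamate receptor genes 12 rose and none fell (median 0.46), but the AMPA receptor subunits Gria1 and Gria2 did not pass the test. Gria1 had 38674 and 40517 in the inputs and 33659 and 42540 in the coIP (-0.06, adjusted p 0.802). Of 30 postsynaptic scaffold genes 13 rose and none fell (median 0.29), among them Camk2b, a subunit of the calcium/calmodulin kinase, from 13687 and 13127 to 19846 and 20579 (0.59, adjusted p 0.00475). Voltage-gated calcium and sodium channels were higher in 14 of 28 genes and lower in 3 (median 0.58), and of 64 protocadherins, 16 rose and none fell (median 0.30). Among 20 mRNAs known to be carried into dendrites 7 rose and 2 fell (median 0.33). Map2, a dendritic microtubule protein, stood at 29733 and 27545 and 30177 and 24420 (-0.07, adjusted p 0.745). On the presynaptic side, 6 of 30 vesicle and release genes rose and 9 fell (median -0.11). Snap25, a SNARE of vesicle fusion, fell from 224720 and 248860 to 152460 and 129680 (log2 fold change -0.75, SE 0.143, adjusted p 0.00233), while Syp, the vesicle protein synaptophysin, rose from 3339 and 3477 to 6780 and 7056 (log2 fold change 1.02, SE 0.130, adjusted p 3.14e-04). Of 21 motor genes 8 rose and 3 fell (median 0.12), with Dync1h1, the dynein heavy chain, going from 7123 and 5642 to 10941 and 11953 (0.84, adjusted p 0.00136). RNA granule and repressor genes had 4 of 24 higher and 2 lower (median 0.05).

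**Figure D3:**
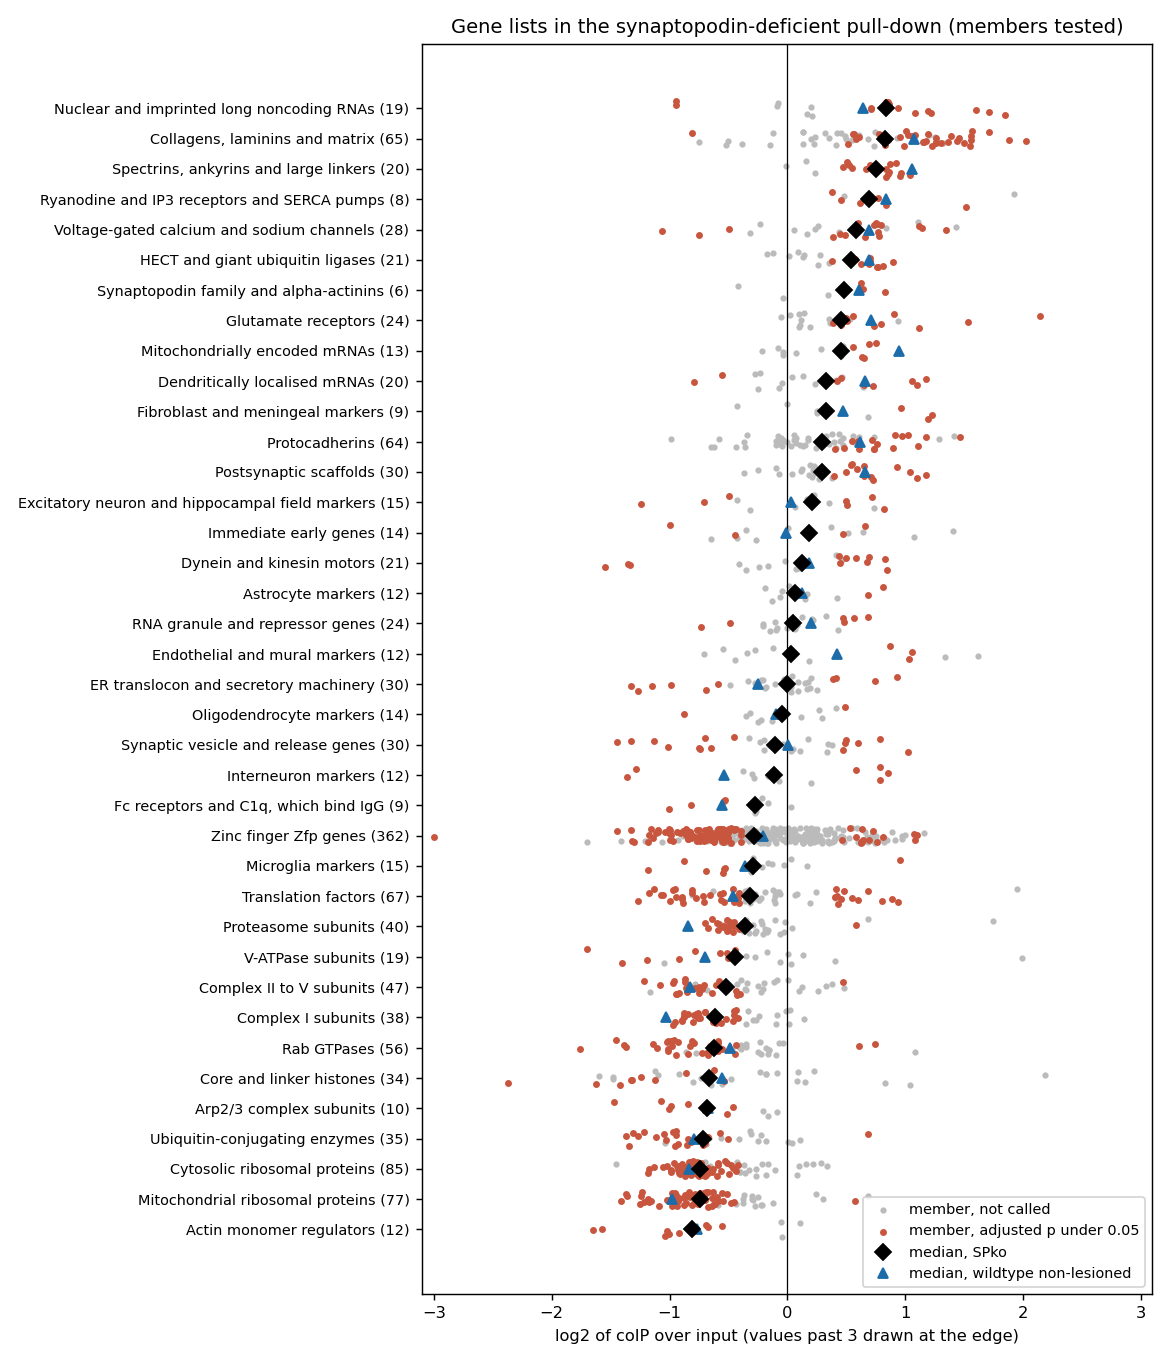
Log2 of coIP over input (horizontal axis) in SPko for each tested member of 38 lists, sorted by median, with called members in red, the SPko median as a diamond and the non-lesioned wildtype median as a triangle, and the number tested in brackets. Lists of small proteins such as Arp2/3 subunits and ribosomal proteins lie left of 0, and matrix genes, spectrins and nuclear RNAs right of it.

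Of 15199 protein-coding genes tested, 2078 were higher in the coIP and 2987 lower. When the trend with coding length was taken out of each library, a setting chosen after seeing the data, 1349 of them were higher and 1485 lower. The medians of several lists then came closer to 0, and in the respiratory lists most calls changed direction. Complexes II to V then had 15 genes higher and 1 lower (median 0.13), against 1 higher and 25 lower before. Complex I had 6 higher and 1 lower (median -0.03), against none higher and 27 lower before. The median of the cytosolic ribosomal proteins went from -0.74 to -0.09, that of the spectrins and linkers from 0.76 to 0.04, that of the HECT-type ligases from 0.54 to -0.09 and that of the ryanodine, IP3 receptor and SERCA genes from 0.69 to 0.05. The actin monomer regulators kept 6 lower genes of 12 and a median of -0.34, and Tmsb4x was still lower at -0.63 (adjusted p 0.00528). The ubiquitin-conjugating enzymes kept 9 lower genes of 35, with 2 higher (median -0.24). The Arp2/3 subunits kept 4 lower genes of 10, with none higher (median -0.27). Among the synaptic lists, 2 glutamate receptor genes were then higher and 1 lower (median 0.09), and 6 scaffold genes higher and 1 lower (0.07). The calcium and sodium channels had 6 higher and 2 lower (0.16), and the protocadherins 3 higher and 2 lower (-0.02). The dendritic mRNAs had 3 higher and 1 lower (0.17). Of the genes named as partners above, Actn1 was still higher at 0.55 (adjusted p 0.0150), while Actn2, Actn4, Ryr2 and Itpr1 had 0.36, 0.32, 0.08 and -0.17 and did not pass (adjusted p 0.201, 0.143, 0.681 and 0.302). Herc1, Ank2, Dync1h1 and Snap25 had 0.00, 0.15, 0.10 and -0.21 and did not pass either. With the trend of exon length removed instead, Herc1 had 0.23 (adjusted p 0.196) and Rpl4 -0.35 (adjusted p 0.0772).

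Of the lists given next, the matrix genes, the mitochondrial mRNAs and the Zfp genes stood away from 0 on either scale. Of 65 collagen, laminin and other extracellular matrix genes 36 rose and 1 fell (median 0.83), and without the coding length trend 17 rose and 2 fell (median 0.44). Col27a1, a fibrillar collagen, had the highest value of the list and rose from 82.2 and 44.4 to 276 and 243 (log2 fold change 2.03, SE 0.328, adjusted p 9.33e-04). Sparc, a secreted collagen-binding protein with a short coding sequence of 996 bases, rose from 45412 and 35367 to 65584 and 53671 (log2 fold change 0.56, SE 0.159, adjusted p 0.0183, and adjusted p 0.159 without the input of preparation 2). The mRNAs of the mitochondrial genome, which are translated inside the organelle and are not bound by cytosolic ribosomes, were higher in 5 of 13 cases and lower in none (median 0.45), against a median of 0.76 and 6 higher without the trend. Together they held 2.31% and 1.78% of the counts in the inputs and 3.85% and 3.17% in the coIP libraries. mt-Cytb, cytochrome b of complex III, rose from 463560 and 372320 to 787810 and 621520 (log2 fold change 0.75, SE 0.163, adjusted p 0.00465). Zinc finger genes of the Zfp series fell in 102 of 362 cases and rose in 15 (median -0.28), with 99 lower and 7 higher without the trend (median -0.32). The 30 genes of the endoplasmic reticulum translocon and secretory machinery had 4 higher, 6 lower and a median of 0.00. Pdia3, a protein disulfide isomerase, rose from 5370 and 4838 to 8748 and 10739 (0.93, adjusted p 7.45e-04), and Srp9, a small subunit of the signal recognition particle, fell from 9618 and 9417 to 4217 and 3376 (-1.33, adjusted p 2.01e-04).

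Noncoding genes that lie inside the introns of protein-coding genes were often higher in the precipitate. Of 1571 such genes tested, on the strand of the host and with no overlap with its exons, 667 (42.5%) were higher and 16 lower, with a median log2 fold change of 1.14. Their medians in the 2 preparations were 1.02 and 1.16. The host genes, of which 1532 were tested, had a median of 0.19, with 398 higher and 198 lower. The largest class was TEC, transcribed regions of the annotation that await experimental evidence: 535 of 1010 intronic TEC genes (53.0%) rose (median 1.23), against 23.7% of 372 TEC genes elsewhere (median 0.59). Processed pseudogenes divided in the same manner, with a median of 0.86 for 238 intronic ones and -0.27 for 733 elsewhere. Long intergenic noncoding RNAs away from protein-coding genes had a median of -0.36 over 870 genes. The counting did not use strand, and reads over an intronic gene cannot be told apart from reads of unspliced RNA of its host.

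**Figure D4:**
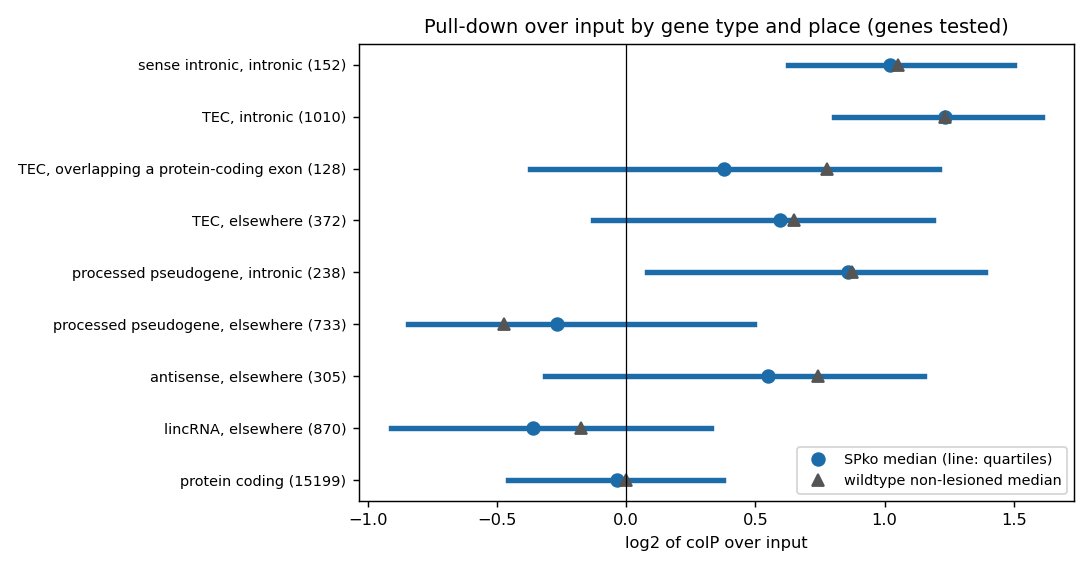
Median log2 of coIP over input (horizontal axis) by gene type and place, with quartiles as lines, SPko as circles and non-lesioned wildtype as triangles, and the number tested in brackets. Intronic TEC genes have the highest SPko median of the classes drawn, 1.23, and long intergenic noncoding RNAs the lowest, -0.36.

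The largest single gain of a gene with a mean normalized count over 300 belonged to a TEC gene, Gm37310 (ENSMUSG00000103047.1, minus strand of chromosome 15, 8652106 to 8655073), which rose from 262 and 140 to 1348 and 713, 5.09-fold (log2 fold change 2.35, SE 0.322, adjusted p 4.05e-04). Gm44830 (ENSMUSG00000108886.1, plus strand of chromosome 7, 59292518 to 59293101) rose from 209 and 172 to 991 and 763 (log2 fold change 2.20, SE 0.214, adjusted p 1.83e-04). Gm42772 (ENSMUSG00000105700.1, minus strand of chromosome 5, 49408792 to 49411832), inside an intron of Kcnip4, rose from 383 and 234 to 1213 and 1168 (log2 fold change 1.94, SE 0.222, adjusted p 2.28e-04). The coIP libraries lay above the inputs in both preparations for all 3. The libraries were primed on polyadenylated RNA, and runs of A in unspliced RNA can serve as priming sites, so the exons of these genes were searched for runs of at least 12 A on the gene's strand. Such a run was present in 18.4% of the intronic genes that rose, in 8.63% of the other intronic genes and in 14.5% of all genes tested. The median exon length of these sets was 2237, 1404 and 3513 bases, and a longer sequence has more room for a run. Of 1420 TEC and sense intronic genes without a run, 40.2% rose (median 1.05), and of 249 with one, 56.2% (median 1.22). The part of such priming in the result was not tested. Runs of A in 2 intronic genes that rose are printed because they show what a priming site of this kind looks like, with 24 bases on either side and the run in capitals (GRCm38). Gm20371 was chosen for them after its values were seen, and had a log2 fold change of 1.67 (adjusted p 3.58e-04).
Gm42772, intron of Kcnip4, chr5:49411123-49411197, minus strand: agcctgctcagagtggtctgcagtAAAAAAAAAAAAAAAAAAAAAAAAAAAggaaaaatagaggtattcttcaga
Gm20371, intron of Lrrtm4, chr6:80303171-80303230, plus strand: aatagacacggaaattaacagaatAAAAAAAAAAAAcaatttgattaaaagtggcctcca

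Known nuclear and imprinted long noncoding RNAs were enriched in 12 of 19 cases and lower in 2 (median 0.84). Some abundant RNAs of the list did not pass the test. Malat1, a resident of nuclear speckles, had 612010 and 487840 in the inputs and 600870 and 671570 in the coIP libraries, which overlap (log2 fold change 0.21, SE 0.152, adjusted p 0.313). Meg3, an imprinted RNA, stood at 114950 and 105400 and 105320 and 142720 (log2 fold change 0.17, SE 0.159, adjusted p 0.439).

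Markers of all cell types of the culture were present, and none of the marker genes of the 7 lists was without counts. In such bulk samples fewer cells of a type and less RNA per cell cannot be told apart. Astrocyte markers summed to 27664 and 21238 CPM in the inputs and 27288 and 24759 in the coIP libraries, with 2 of 12 genes higher and none lower. Oligodendrocyte markers summed to 5339 and 5310 CPM in the inputs and 4881 and 5987 in the coIP, with 1 of 14 higher and 1 lower. Excitatory neuron and field markers, which check the hippocampal tissue, summed to 874 and 910 CPM in the inputs and 691 and 673 in the coIP, with 4 of 15 higher and 3 lower. Interneuron markers stayed between 1442 and 1544 CPM in the 4 libraries, with 4 of 12 higher and 2 lower, endothelial and mural markers between 48.4 and 67.3 CPM with 3 of 12 higher, and fibroblast and meningeal markers between 86.8 and 147 CPM with 3 of 9 higher. Of 15 microglia markers 6 fell and 1 rose (median -0.29), and their sum went from 2653 to 2162 CPM in preparation 1 and from 2497 to 2726 CPM in preparation 2. Aif1, a calcium-binding protein with a short coding sequence of 441 bases, fell from 2744 and 2757 to 1267 and 1152 (log2 fold change -1.19, SE 0.142, adjusted p 2.49e-04), and Itgam, an integrin subunit with a coding sequence of 3501 bases, rose from 830 and 723 to 1442 and 1573 (log2 fold change 0.96, SE 0.158, adjusted p 0.00105). The mRNAs of Fc receptors and of C1q, proteins that bind antibodies, were read as a list: 4 of 9 were lower and none higher (median -0.28). Without the coding length trend 1 was lower and none higher (median -0.04). Levels of mRNA do not show what the proteins bind, and the part of these proteins in the pull-down was not tested. Fcgr3, an Fc receptor, fell from 13056 and 12417 to 6254 and 6438 (log2 fold change -1.005, SE 0.129, adjusted p 3.21e-04). Of 14 immediate early genes 2 rose and 2 fell.

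The 2 preparations shared the pattern but differed in single genes. Across 10839 genes with a mean normalized count over 300, the log2 ratios of coIP to input of preparations 1 and 2 had a Pearson's r of 0.852, and across all genes tested 0.572. The lists of translation and respiratory genes had lower medians in preparation 2, where that of the cytosolic ribosomal proteins was -0.95 against -0.53 in preparation 1, and that of complex I -0.87 against -0.38. The microglia markers went the other way, with -0.12 against -0.49, as did the Fc receptor and C1q genes, with -0.26 against -0.50. Among the 5 genes that differed most, Spry2, a feedback inhibitor of MAP kinase signalling, had 354 and 856 in the inputs of preparations 1 and 2 and 946 and 652 in the coIP, a rise in one preparation and a drop in the other (0.40, adjusted p 0.359). Inputs carry a pair of numberings in the labels that cross, and the number in the title was used. The levels of Y-linked genes and Xist do not show which coIP and input share a lysate, since they were alike in both preparations.

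The wildtype pull-down, which has its target, gave a similar profile. In the 5 non-lesioned wildtype samples per fraction, 5389 of 18222 genes (29.6%) were higher and 4642 (25.5%) lower. Of 2952 genes higher in SPko that were tested in wildtype, 2650 (89.8%) were also higher there, which is 49.2% of the 5386 wildtype calls tested in SPko. Of 3359 lower genes 2827 (84.2%) were also lower in wildtype, which is 61.0% of the 4638 wildtype calls tested in SPko. Only 1 gene called higher in SPko was called lower in wildtype, and 1 the reverse. The lesioned wildtype samples gave 89.9% and 87.6%. Across 17748 genes the log2 fold changes of SPko and non-lesioned wildtype had a Pearson's r of 0.833, and genes are not independent replicates. The wildtype calls rest on 5 libraries per fraction and the SPko calls on 2, so counts of calls do not compare the genotypes.

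**Figure D5:**
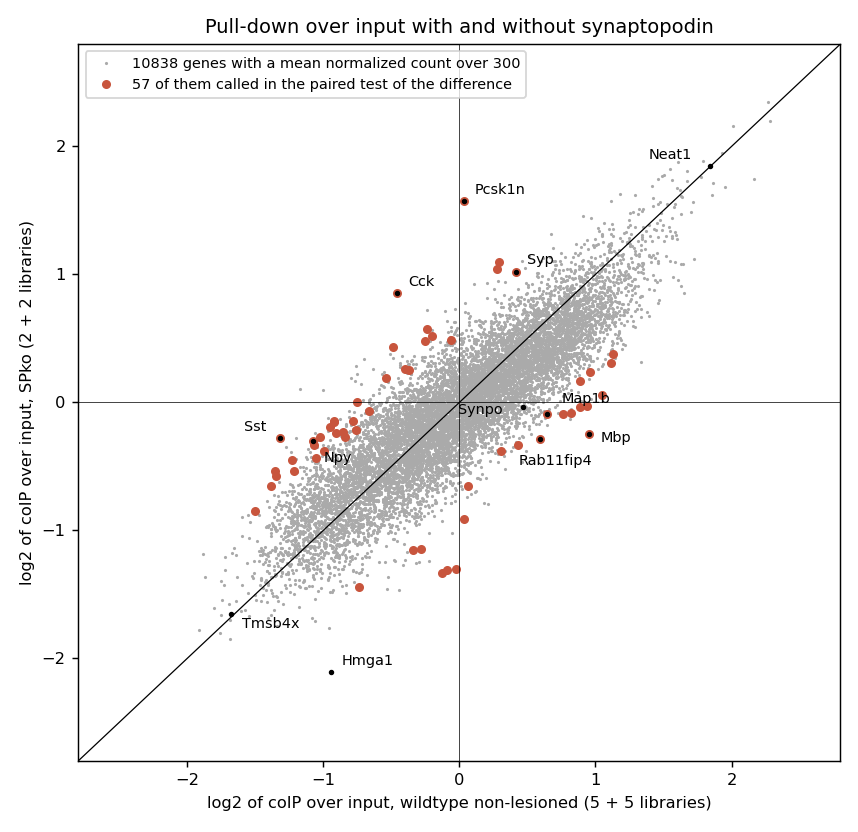
Log2 of coIP over input in SPko (vertical axis) against non-lesioned wildtype (horizontal axis) for 10838 genes whose mean normalized count exceeds 300. The line marks equal values, and red marks 57 of the genes that the paired test of the difference called. Sst, Npy, Cck, Pcsk1n and Syp lie above the line, and Mbp, Map1b and Rab11fip4 below it.

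The test of the difference itself, genotype by fraction over 14 libraries, called no gene in either direction of 20621 tested (0.00% each, edgeR, smallest adjusted p 0.362), and 1511 genes (7.33%) had an unadjusted p under 0.05. DESeq2 called 25 genes with a higher and 39 with a lower value in SPko. With the preparation as a block, which the design provides since coIP and input come from one lysate, 37 genes were higher and 24 lower in SPko relative to wildtype. The SPko pairs of this block follow the number in the title, and a block by the other number was not run for this test. Of these 61 genes, 42 were also called with the gene length trend removed as well and 20 by DESeq2. Against the lesioned wildtype samples with the block, a comparison that uses the same SPko libraries, no gene was called (smallest adjusted p 0.378). The difference itself ran with coding length. Across 10399 genes with a mean normalized count over 300, Pearson's r of SPko minus wildtype with the logarithm of coding length was -0.342. From the shortest to the longest class of coding length used above, its medians were 0.10, 0.14, 0.03, -0.10 and -0.19. The part of coding length in the differences of single genes and lists was not tested. The genes named next were chosen from the 61 after their values were seen. Among those with a higher value in SPko were neuropeptide genes and a gene of their processing. Sst, somatostatin, had 19557 and 21739 in the SPko inputs and 17101 and 16908 in the coIP (log2 fold change -0.28, adjusted p 0.122), against -1.32 in wildtype (adjusted p 6.25e-04), a difference of 1.09 with the block (SE 0.129, adjusted p 0.00418). Npy, neuropeptide Y, stood at -0.30 (adjusted p 0.0950) in SPko and -1.07 (adjusted p 0.149) in wildtype, so that neither passed. Cck, cholecystokinin, rose from 573 and 426 to 949 and 861 in SPko (log2 fold change 0.86, SE 0.191, adjusted p 0.00552), with -0.46 in wildtype (adjusted p 0.355). Leaving out the input of preparation 2 gave Cck an adjusted p of 0.0582. Pcsk1n, an inhibitor of prohormone convertase 1, rose from 359 and 248 to 1027 and 785 (log2 fold change 1.57, SE 0.223, adjusted p 4.79e-04), with 0.03 in wildtype (adjusted p 0.931). Syp differed by 0.66 with the block (SE 0.130, adjusted p 0.0458).

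Other mRNAs had a lower value in SPko than in wildtype. Map1b, a microtubule-associated protein of growing neurites, had 159950 and 173800 in the SPko inputs and 146920 and 165940 in the coIP (-0.09, adjusted p 0.638), against 0.64 in wildtype (adjusted p 1.65e-05), a difference of -0.69 with the block (SE 0.103, adjusted p 0.0197). Mbp, the myelin basic protein whose mRNA is carried into oligodendrocyte processes, stood at -0.25 (adjusted p 0.266) in SPko and 0.96 in wildtype, which did not pass there either (adjusted p 0.114), a difference of -1.06 (SE 0.182, adjusted p 0.0282). Rab11fip4, an effector of recycling endosomes, had -0.29 (adjusted p 0.132) in SPko and 0.59 (adjusted p 2.73e-05) in wildtype, a difference of -0.82 (SE 0.132, adjusted p 0.0233). Among the lists, 23 of the 40 proteasome subunit genes had an unadjusted p under 0.05 for the difference, where the background is 7.33%. Their median log2 fold change was -0.36 in SPko and -0.84 in wildtype, and their median coding length was 829.5 bases.

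The 10 genes that the study printed for its coIP were all higher in wildtype. The study chose its enriched genes on those samples and after subtracting the SPko log2 fold changes. Their wildtype values, their SPko values and their differences between genotypes are therefore not independent evidence. In SPko 1 of the 10 passed the test, and none of their differences between genotypes was called without the block or with it, while 5 of the 10 had an unadjusted p under 0.05 for the difference. Shank1, a scaffold of the postsynaptic density, rose from 793 and 638 to 1354 and 1013 (log2 fold change 0.72, SE 0.189, adjusted p 0.0124). Leaving out the input of preparation 2 gave Shank1 an adjusted p of 0.0942, and leaving out the coIP of preparation 1 gave 0.0762. Grin2b, an NMDA receptor subunit, had 15537 and 15550 in the inputs and 19117 and 20840 in the coIP (0.36, adjusted p 0.0500 and 0.0478 with the block). Camk2a, the other main kinase subunit, had 125860 and 90579 and 95940 and 86408, which overlap (-0.25, adjusted p 0.270). The median of the 10 genes was 0.15 in SPko and 0.70 in wildtype.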

How the data were processed

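RNA of Synpo-coIP and input was sequenced from 2 SPko preparations and, for comparison, from 5 non-lesioned and 5 lesioned wildtype samples per fraction. Per the labels and the study's methods, the authors used cutadapt for trimming, STAR for alignment to mm10 (GRCm38) and featureCounts for unstranded counting over the exons of GENCODE genes. The deposited values are these raw counts, without normalization. Values of overlapping genes, of antisense pairs and of close paralogs are therefore uncertain. Libraries carry no molecular identifiers, and counting error understates the spread, which was taken from replicates.

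Groups follow the labels, with the preparation number of the title. Counts were fitted with edgeR 4.0.16 (R 4.3.3, TMM, filterByExpr, quasi-likelihood test), without a block, with Benjamini-Hochberg adjustment across the whole table and a limit of 0.05. The SPko comparison used its 4 libraries, and genotype by fraction added the non-lesioned wildtype. Normalized counts are counts over the relative effective library size, and ratios per preparation carry a pseudocount of 1. Coding length is the longest annotated coding sequence without the stop codon. The coding length trend of each library was fitted by lowess (span 0.3, mean count over 50) and entered as an offset. Coding sequences and runs of A were read from the GRCm38.p6 reference. Alternatives were DESeq2 1.42.0, RLE size factors, no low-count filter, removal of length, GC or coding length trends, replicate blocks, all 24 coIP-experiment libraries in one fit, a minimum mean normalized count of 300, the lesioned wildtype and leaving out each library. Fits were tested on simulated data.

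Coinciding deviations of coIP and input from their group means gave r of 0.0456 in the SPko pairs and 0.189 to 0.442 in the non-lesioned wildtype pairs, and pairing rests on the shared lysate. Genes named are the 12 largest changes per direction with a mean normalized count over 300, the 4 most abundant members and the extremes of each list, synaptopodin and alpha-actinins, the genes printed in the study's coIP figure, the most different genes between genotypes or preparations, and Xist and Y-linked genes, except where chosen later as stated. Members and lists were chosen with earlier results of these data known.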

Additional observations from a re-analysis of the deposited data

Results flagged for a closer look

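No value was flagged. Only groups of at least 4 libraries can be searched for a library far from the others, so the wildtype groups were examined for the level of Synpo, the total count and the share of mitochondrial mRNAs, 12 sets of 5 values, and no library was set apart, and the SPko groups of 2 libraries could not be. In the fit reported, which has no block, no difference between the genotypes was called, while DESeq2 and the fit without the low-count filter called some. Of the differences called with the block, those of the genes named are given above with their values.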

How the results depend on the processing

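The counts of genes called in SPko stayed within 1.5 times of those reported under DESeq2, RLE size factors, no low-count filter, removal of the length or length and GC trends, each replicate block and all 24 libraries in one fit. They moved further without the input library of preparation 2, and the counts over all left-out libraries ran from 1499 to 2806 higher and 1984 to 3499 lower, where the lone library of a fraction is assumed to vary like the others. Without the coding length trend, a setting added after seeing the data, 1349 genes were higher and 1485 lower, in part because only protein-coding genes were tested. Of the protein-coding genes 2078 were higher and 2987 lower as reported. Among genes with a mean normalized count over 300 alone, which tests fewer genes, 1885 were higher.

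The difference between genotypes had 0 calls as reported, 25 higher and 39 lower with DESeq2, 39 and 16 without the low-count filter, 37 and 24 with the replicate block, and 26 and 32 with the replicate block and the length trend removed, and the cause was not tested. Leaving out 1 library gave 0 calls each time. With the lesioned wildtype it gave 0 calls with the block and without it. Apart from these counts and that of Grin2b, the replicate block changed no call of the 69 genes named. In the SPko comparison a block by the other number of the labels, which crosses the inputs, ended the call of Eef2 alone among the genes named. That block was not run for the difference between genotypes.

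The wildtype counts ran from 4995 to 5423 higher and 4311 to 4768 lower without single libraries. Of the genes named, 15 lost their call or changed sign without the coding length trend, 8 without the length trend (Herc1, Ank2, Itpr1, Ryr2, Psmb6, Rpl4, Rplp0 and Shank1) and 9 without the length and GC trends, where Camk2b, Ndufv2 and Gria2 take the place of Ryr2 and Rplp0. Signs reversed without the coding length trend for Itpr1 (-0.17), Sst (0.52) and Npy (0.56), and with the length and GC trends removed for Gria2 (-0.48). With all 24 libraries in one fit 8 named calls were lost, Xist among them, whose level varied widely between wildtype pools. With 2 libraries per fraction a difference that missed the threshold is not shown to be absent, and the genotype comparison sets 2 deep SPko libraries per fraction against 5 shallower ones of wildtype. Settings not listed in advance were the coding length trend, the length trend together with the block for the SPko comparison, and the lesioned wildtype with the block.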
